A study of Homo sapiens with 4 samples.

Results

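The antiproliferative genes BTG1, BTG3, TOB1, TOB2, PNRC1 and PNRC2 were examined together with CNOT7 and CNOT8, the deadenylase subunits that BTG and TOB proteins bind. HCT116, an established human colon carcinoma line, was grown untreated either as monolayers (2 arrays) or as spheroids (2 arrays), three-dimensional aggregates also called multicellular spheroids (MCS). All 4 cultures shared the line and the lack of treatment, 1 line cannot stand for colon carcinoma in general, and an array of a whole spheroid mixes its proliferating rim with its quiescent core. A probe set, the unit of an Affymetrix array, belonged to these genes if its only platform symbol was one of the 8, which held for 24 of 41091 probe sets with a single symbol. The genes were selected on family membership and with their spheroid to monolayer differences already known, those of BTG1 and PNRC1 above all. Their differences are therefore given as a description, with standard errors but without p-values, and nothing is inferred from how many of them differed.

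BTG and TOB proteins share a conserved amino-terminal domain that contacts CNOT7 or CNOT8, the catalytic partners within the CCR4-NOT complex, which shortens the poly(A) tails of mRNAs. TOB1 and TOB2 have in addition motifs that bind the cytoplasmic poly(A)-binding protein, and cells forced to express BTG or TOB genes divide more slowly. PNRC1 and PNRC2 are small proline-rich coactivators of nuclear receptors that also bind the decapping machinery. PNRC2 links the nonsense-mediated decay factor UPF1 to the decapping protein DCP1A.

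The arrays were scaled by MAS5, Affymetrix's summary of the probes of a probe set, to a trimmed mean of 500.1 units apiece, so a signal is relative to the total of its array. The unspiked control probe sets read 4.47 to 35.0 units, below every signal of the brightest probe set of each of the 8 genes. The 5 epithelial markers (EPCAM, CDH1, KRT8, KRT18, KRT19) summed to 80396 to 88203 units in monolayers and 91317 to 94936 in spheroids. They did not move together. The spheroid mean was 3.30 times the monolayer mean for CDH1, 1.74 times for KRT19 and 0.72 times for KRT8, while EPCAM and KRT18 overlapped. The 5 markers of other cell types (VIM, COL1A1, COL1A2, PTPRC, PECAM1) summed to 1092 to 1345 units in monolayers and 3070 to 3178 in spheroids. Most of that sum was COL1A1, at 869 and 658 against 2222 and 2659, and PTPRC was at 2.02 to 38.1 on all arrays. VIM read 204 and 295 against 651 and 374, PECAM1 199 and 136 against 117 and 107, and COL1A2 1.23 to 53.4 on all arrays. The ratio of the 3′ to the 5′ ACTB control was 2.34 to 2.64 in monolayers and at least 2.82 in spheroids. The part of either shift in the results was not tested, and in these bulk samples fewer cells of a kind cannot be told apart from less RNA per cell.

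PNRC1 and BTG1 were far higher in spheroids, TOB1 was moderately higher except under spike-in scaling, BTG3 was lower, and PNRC2, CNOT7 and CNOT8 were not called. TOB2 was somewhat higher, with a call that most alternative settings removed. All log2 differences are of signal + 32 (a constant that damps noise of dim probe sets), spheroids minus monolayer, ± their standard error, and a gene stands for its brightest probe set. All 8 genes passed the filter of a mean signal above 300 units. Of the 8, limma (adjusted p under 0.05 over 8721 genes tested) called 4 higher, where 19.0% of all genes tested were called higher, and 1 lower, where 20.6% were. Both spheroid arrays lay above both monolayer arrays for 6 of the 8, as for 33.4% of all genes tested, and below them for 2, as for 36.6%. The median difference of the 8 was 0.42, against -0.03 for all genes tested.

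**Figure D1:**
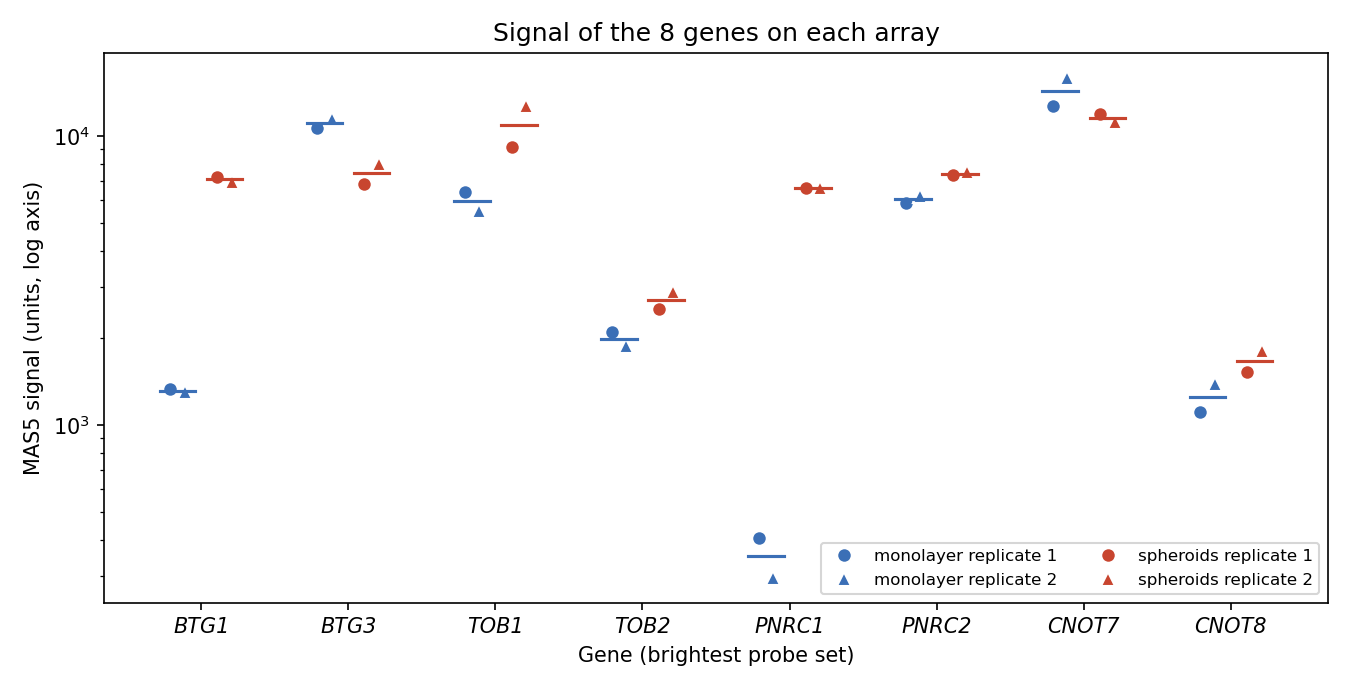
MAS5 signal (y, log axis) of the brightest probe set of each of the 8 genes (x) on the 2 monolayer (blue) and 2 spheroid (red) arrays; circles are replicate 1, triangles replicate 2 and bars the group means. The groups do not overlap for any gene, and the gap is widest for PNRC1 (296 to 407 against 6584 to 6598) and BTG1. Probe sets of different genes bind with different strength, so levels can be compared within a gene only.

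PNRC1 had the largest difference of the 8. Its single probe set read 407 and 296 units in monolayers and 6598 and 6584 in spheroids. The spheroid cultures were nearly identical and 18.8-fold above the monolayer mean, while the monolayer signals were dim and further apart. The log2 difference was 4.13 ± 0.19, and 0.103% of all genes tested had a larger one. With each array left out in turn it ran from 3.92 to 4.34.

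Its paralogue PNRC2 was bright under both conditions, at 5879 and 6219 units in monolayers and 7294 and 7493 in spheroids (0.29 ± 0.13, not called). The spheroid arrays were above the monolayer arrays by 1.22-fold on average. A second PNRC2 probe set showed no such order, with 1009 and 1724 units in monolayers against 905 and 1737 in spheroids (-0.07 ± 0.31). On that probe set the arrays with the same replicate number read alike, low for replicate 1 and high for replicate 2 in both culture types. The difference of PNRC1 exceeded that of PNRC2 by 3.84 on the log2 scale.

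BTG1, which slows cell cycle entry and is highest in resting cells of many tissues, read 1333 and 1295 units in monolayers and 7221 and 6916 in spheroids. The cultures of each kind lay close together and the groups were 5.38-fold apart (2.40 ± 0.15). A second BTG1 probe set gave 811 and 878 units against 5659 and 4452, a difference of 2.53 ± 0.18. The remaining one, with a mean of 40.5 units, was barely brighter than the unspiked controls and was not tested. The BTG1 difference ran from 2.37 to 2.43 with each array left out, and 1.04% of genes tested had a larger one.

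BTG3 went the other way. This family member, also called ANA, read 10665 and 11432 units in monolayers and 6833 and 7999 in spheroids, a 1.49-fold higher mean in monolayers (-0.58 ± 0.13). Its brightest probe set carries the suffix _x_at, which marks probes that can also match other transcripts. The second probe set, with the suffix _s_at, gave 6595 and 6435 against 4246 and 4766 units and nearly the same difference (-0.53 ± 0.14). With both suffixes set aside, BTG3 had no tested probe set. Both remaining BTG3 probe sets had means of 79.7 and 145.8 units and were not tested. BTG1 and BTG3 thus differed from each other by 2.98 on the log2 scale in their response.

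TOB1 read 6406 and 5505 units in monolayers and 9172 and 12720 in spheroids (0.86 ± 0.16). The spheroid cultures were the more variable pair, and leaving out spheroids replicate 2 lowered the difference to 0.62, while leaving out spheroids replicate 1 raised it to 1.09. A dimmer TOB1 probe set, just under the filter at a mean of 288 units, read 214 and 162 against 389 and 388. TOB1 was thus higher in both spheroid arrays by both probe sets.

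TOB2 read 2102 and 1868 units in monolayers and 2519 and 2872 in spheroids (0.43 ± 0.16). It was called higher among genes, but in only 4 of the 13 alternative settings that gave it a value. The call was lost when any 1 of the 4 arrays was left out (0.34 to 0.53), with no filter, with a filter of 100, with a constant of 1, without the intensity trend and with spike-in scaling, and also when all probe sets were fitted. A second TOB2 probe set separated the groups more widely, at 652 and 561 against 1093 and 1018 units (0.77 ± 0.20). The last was dim, with a mean of 58.9 units, and ran the other way at 110 and 61.7 against 21.4 and 42.5. The 2 TOB genes differed by 0.42 on the log2 scale, with TOB1 the larger.

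CNOT7 and CNOT8 encode near-equivalent catalytic subunits of CCR4-NOT, and neither was called by its brightest probe set. CNOT7 read 12717 and 15864 units in monolayers and 11862 and 11175 in spheroids, so the spheroid arrays were lower (-0.30 ± 0.13). The difference was -0.14 without monolayer replicate 2 and -0.46 without monolayer replicate 1. Another CNOT7 probe set gave 8026 and 8135 against 6479 and 6050 units (-0.37 ± 0.13, called lower when all probe sets were fitted), and the next 1246 and 1589 against 1026 and 1306 (-0.27 ± 0.20). All 3 probe sets over the filter were on the lower side in spheroids, although the groups overlapped on the last of these. The 3 CNOT7 probe sets under the filter, with means of 15.2 to 202.8 units, were on the higher side, the brightest at 103 and 138 against 278 and 292 units. The groups overlapped on both dimmer ones, whose means of 25.2 and 15.2 units lay within the range of the unspiked controls.

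CNOT8 read 1112 and 1380 units in monolayers and 1521 and 1806 in spheroids (0.41 ± 0.19), a difference of 0.26 when monolayer replicate 1 was left out and 0.56 when monolayer replicate 2 was. The other CNOT8 probe sets gave smaller differences of 0.27 ± 0.21 and 0.03 ± 0.20, and both overlapped between the groups. On all 3, replicate 1 was below replicate 2 in either culture type. The deadenylase pair therefore showed differences of opposite sign, 0.71 apart on the log2 scale, of which neither was called.

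**Figure D2:**
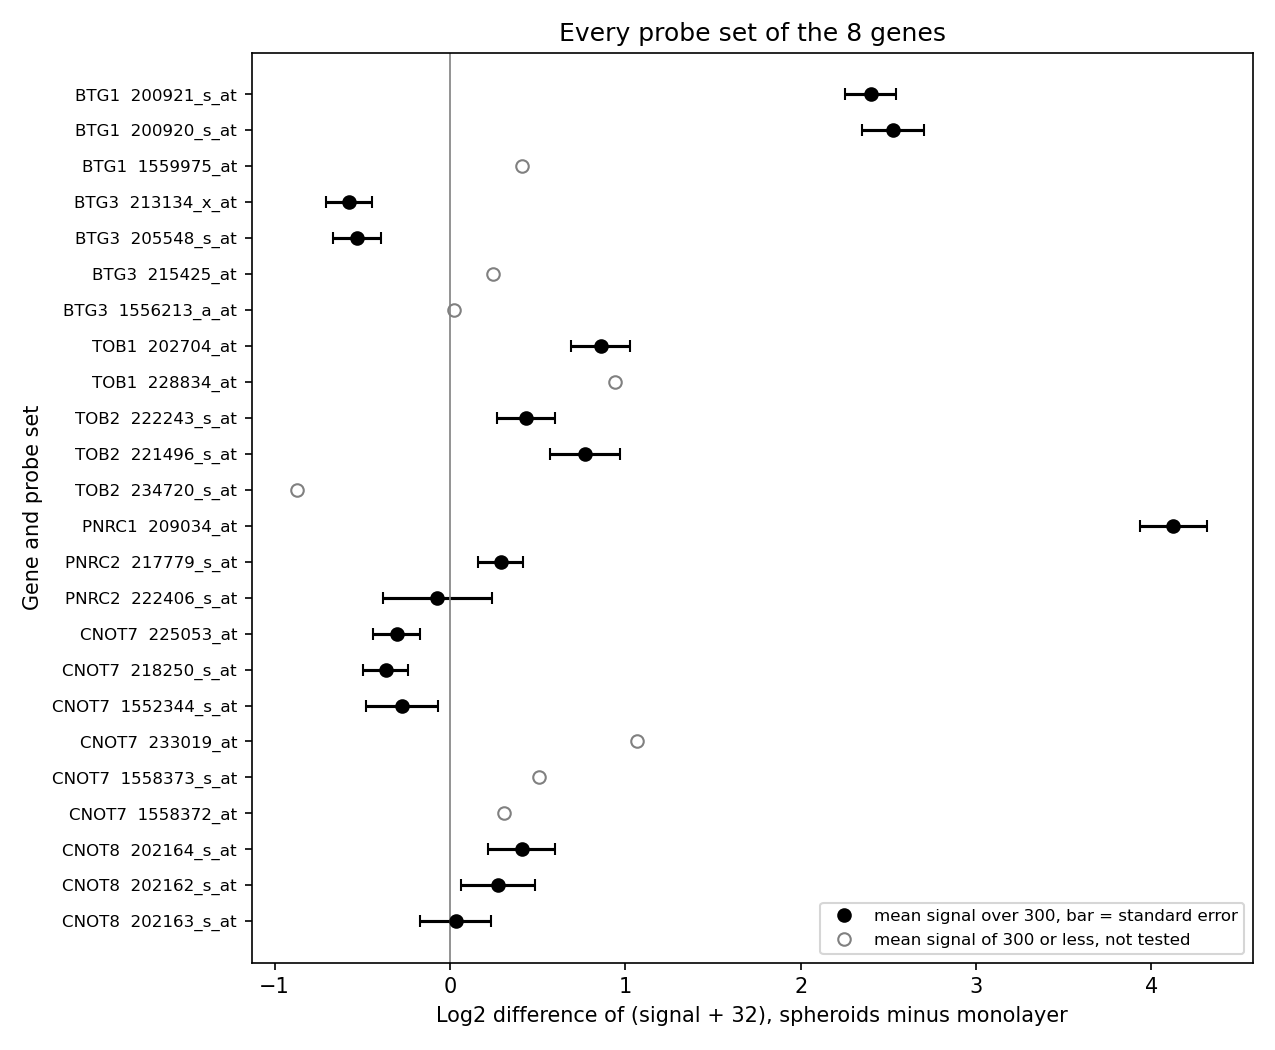
Log2 difference of signal + 32 between spheroid and monolayer arrays (x) for all 24 probe sets of the 8 genes (y), 2 arrays per group. Filled points are the 16 probe sets with a mean over 300 units, with their standard error, and open points the 8 dimmer ones, which were not tested. Bright probe sets of BTG1, BTG3, TOB2 and CNOT7 lie on the same side of 0, whereas dim ones of BTG3, TOB2 and CNOT7 lie opposite. Among these dim ones the groups overlap on the dimmest of BTG3 (0.021) and on those of CNOT7 with means of 25.2 and 15.2 units.

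These differences rest on equal total signal per array. Bacillus control transcripts were 1.82-fold brighter in spheroids, and scaling the arrays to their 24 probe sets shifted the median of all genes tested to -0.87. PNRC1 and BTG1 stayed higher under that scaling, at 3.30 ± 0.41 and 1.55 ± 0.41. BTG3 was lower by a wider margin (-1.44 ± 0.40), as was CNOT7 (-1.16 ± 0.39). TOB1 was at -0.00012, and TOB2 (-0.42), PNRC2 (-0.57) and CNOT8 (-0.43) were below 0. Of the 8 genes, 2 were then called higher and 2 lower, where 169 and 4073 of 8800 genes tested were. Measured from the median of all genes, the values hardly moved, which scaling each array by a single factor nearly fixes in advance. Examples are 4.16 to 4.17 for PNRC1, 2.43 to 2.42 for BTG1, 0.89 to 0.87 for TOB1 and -0.55 to -0.56 for BTG3.

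**Figure D3:**
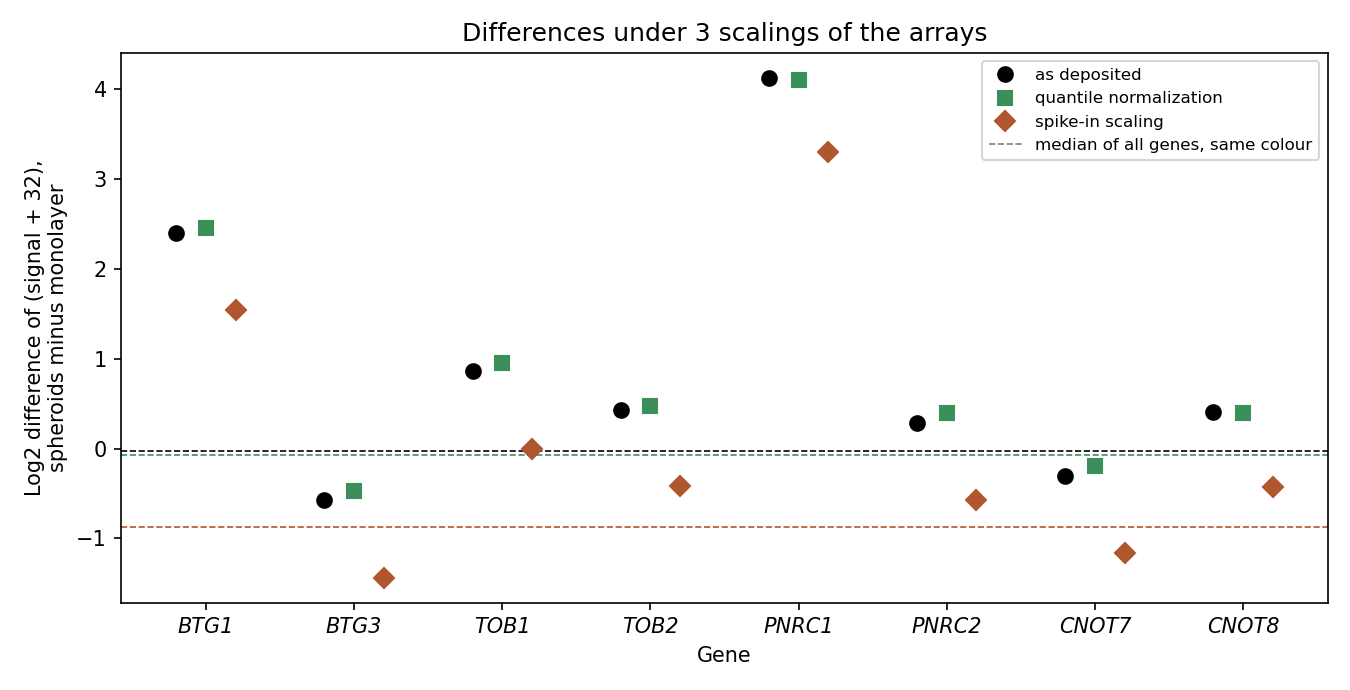
Log2 difference of signal + 32 between spheroid and monolayer arrays (y) of each gene (x), with the arrays as deposited (black circles), after quantile normalization (green squares) and scaled to the Bacillus spike-in controls (brown diamonds). Dashed lines are the medians of all genes under the scaling of the same colour, at -0.03, -0.07 and -0.87. The order of the 8 genes is the same as deposited and with spike-in scaling, which moves all genes nearly alike. TOB1 drops to -0.00012 and TOB2, PNRC2 and CNOT8 cross 0 under spike-in scaling.

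The 250 bases upstream of the start were read for 7 of the 8 genes (10 windows) from the RefSeq promoter table of GRCh38.p14, in which 35116 windows of that length were searched for the same motifs. The windows of PNRC1 (chr6:89080501-89080750, plus strand) and BTG1 (chr12:92145847-92146096, minus strand), the genes with the largest differences, and of BTG3 (chr21:17612902-17613151, minus strand), the gene called lower, are shown from the far end to the last base before the start, with matches in capitals.
PNRC1: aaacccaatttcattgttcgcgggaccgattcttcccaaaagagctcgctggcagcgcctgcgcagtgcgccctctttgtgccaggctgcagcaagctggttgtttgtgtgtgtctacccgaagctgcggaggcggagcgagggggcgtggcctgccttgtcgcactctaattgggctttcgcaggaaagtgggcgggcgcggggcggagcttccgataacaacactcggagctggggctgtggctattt
BTG1: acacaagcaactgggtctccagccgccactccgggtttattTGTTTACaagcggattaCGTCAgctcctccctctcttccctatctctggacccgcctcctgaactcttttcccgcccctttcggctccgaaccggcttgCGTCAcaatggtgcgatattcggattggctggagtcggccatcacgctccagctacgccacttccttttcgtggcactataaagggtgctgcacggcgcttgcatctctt
BTG3: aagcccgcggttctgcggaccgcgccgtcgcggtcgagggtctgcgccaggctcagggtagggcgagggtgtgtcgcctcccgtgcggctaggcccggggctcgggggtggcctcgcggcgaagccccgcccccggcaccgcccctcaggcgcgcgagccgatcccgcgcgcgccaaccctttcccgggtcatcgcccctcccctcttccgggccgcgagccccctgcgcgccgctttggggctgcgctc

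The motifs searched on both strands were GTAAACA, the core recognised by FOXO factors, ACGTG, the core of hypoxia response elements, TGACGTCA, the cAMP response element, and TGANTCA, the AP-1 site. TGACG, the half-site of the cAMP response element that it contains, was added after the sequences were seen. BTG1 held the FOXO core at -209, a motif in 2.98% of all windows, and the half-site at -192 and -110, a motif in 21.2%. All these BTG1 matches lie on the strand opposite to the printed one, so that they read there as TGTTTAC and CGTCA. Neither the PNRC1 nor the BTG3 window held any of these letters. Among the other members, 1 window of TOB1 and 1 of CNOT8 held the half-site, and 1 of CNOT8 held the hypoxia core, found in 18.5% of all windows. The windows of PNRC1, BTG1 and BTG3 were 60.8%, 56.4% and 78.4% G or C, against a median of 58.0%. These matches are descriptions of letters, and binding was not measured.

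Over the 4 arrays, the genes closest to BTG1 were SCNN1A, ISG15 and ATF3, with root mean square distances of 0.023, 0.049 and 0.051 between log2 profiles centred on their own mean. SCNN1A, a subunit of the epithelial sodium channel, read 727 and 704 units in monolayers and 4086 and 3740 in spheroids. For PNRC1 they were IFIT3 (0.079), DEPP1 (0.23) and H2AC6 (0.28). IFIT3, an interferon-induced gene, read 183 and 129 against 3107 and 2809 units, and DEPP1 16.2 and 17.9 against 758 and 625. The monolayer signals of DEPP1 lay within the range of the unspiked controls. With 2 groups of 2 arrays, such likeness says little beyond a similar size of difference.

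Genes of mRNA decay, the pathway these proteins act in, were divided between the directions. They are called partners here, whether or not they contact these proteins. Of 73 genes in 6 lists (chosen with earlier results of these data known), 64 had a probe set with a single symbol and 59 were tested. Of these 59, 9 were higher and 17 lower (limma, adjusted p under 0.05), or 15.3% and 28.8% against 19.0% and 20.6% of all genes tested. Their median log2 difference was -0.25, against -0.03 for all genes. With spike-in scaling 1 was higher and 35 lower (median -1.09), where 169 and 4073 of 8800 genes tested were (median -0.87). Without spheroids replicate 2 the median was -0.35. In the family itself BTG4, an oocyte factor, read 2.56 to 46.7 units on its 2 probe sets and was not tested, and BTG2 was not analysed here.

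The other CCR4-NOT subunits were divided. Among 9 tested genes, 2 were higher (22.2%, against 19.0% of all genes tested), 3 lower (33.3%, against 20.6%) and 4 not called. Their median was -0.11 (-0.022 with no filter) and ran from -0.18 to -0.0031 with each array left out. CNOT9, a subunit that docks onto the CNOT1 scaffold, was lower, at 2584 and 2448 units in monolayers against 1505 and 1409 in spheroids (-0.78 ± 0.16, limma adjusted p = 0.00252). The ubiquitin ligase CNOT4 was lower at 1242 and 1170 against 664 and 929 units (-0.60 ± 0.21, limma adjusted p = 0.0380), a call lost without monolayer replicate 1 (-0.56), monolayer replicate 2 (-0.64) or spheroids replicate 1 (-0.36). CNOT10, named after its value was seen, was the remaining lower subunit (-0.51 ± 0.17), and no array could be left out without losing its call (-0.45 to -0.57).

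The higher subunits were CNOT6L and CNOT2. CNOT6L, a deadenylase of the CCR4 kind that acts beside CNOT7 or CNOT8, read 1855 and 1879 units against 2668 and 3042 (0.60 ± 0.16, limma adjusted p = 0.00986). CNOT2 read 3708 and 4268 against 5876 and 5656 (0.53 ± 0.14, limma adjusted p = 0.00986). Both turned sign with spike-in scaling, to -0.25 and -0.33. The call of CNOT6L was lost without spheroids replicate 2 (0.51), and that of CNOT2 without monolayer replicate 1 (0.43) or spheroids replicate 1 (0.50), and when probe sets with the suffix _x_at or _s_at were set aside (0.41). The scaffold CNOT1 was not called (0.07 ± 0.13).

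Of 9 tested deadenylases outside CCR4-NOT and poly(A)-binding proteins, 2 were higher and 2 lower, 22.2% each way against 19.0% and 20.6% of all genes tested. Their median of 0.14 was -0.0049 without monolayer replicate 1, -0.15 without spheroids replicate 2, -0.12 with _x_at or _s_at probe sets set aside and -0.00046 with quantile normalization. The PAN2-PAN3 deadenylase, which trims long tails, was higher in both subunits. PAN2 read 434 and 413 units in monolayers and 777 and 832 in spheroids (0.88 ± 0.21, limma adjusted p = 0.00630), and was at 0.060 with spike-in scaling. PAN3 read 2204 and 2210 against 2778 and 3204 (0.43 ± 0.16, limma adjusted p = 0.0449). PAN3 was no longer called without monolayer replicate 1 (0.43), without monolayer replicate 2 (0.43) or without spheroids replicate 2 (0.33), and spike-in scaling reversed it (-0.42).

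The lower members were the nuclear deadenylase TOE1 (-0.78 ± 0.21, limma adjusted p = 0.0116) and the mitochondrial PDE12 (-0.72 ± 0.16, limma adjusted p = 0.00307). The call of TOE1 was lost without monolayer replicate 2 (-0.63) or spheroids replicate 2 (-0.61). PABPC1, the cytoplasmic poly(A)-binding protein that TOB proteins contact, read 38553 and 47212 units in monolayers and 46121 and 48004 in spheroids, and was not called (0.14 ± 0.11).

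Decapping and exonuclease genes were more often lower than higher. The 21 tested genes comprised 8 lower, 1 higher and 12 without a call (median -0.32, and 38.1% lower against 20.6% of all genes tested). The median was -0.18 without spheroids replicate 1 and -0.45 without spheroids replicate 2. LSM1, the subunit that sets the cytoplasmic LSM ring apart from the nuclear one, read 6871 and 6948 units in monolayers and 2573 and 3103 in spheroids (-1.28 ± 0.15, limma adjusted p = 4.49e-05). LSM6 (-0.93 ± 0.17, limma adjusted p = 0.00119) and LSM5 (-0.77 ± 0.12, limma adjusted p = 2.77e-04) were lower too. Named after their values were seen, LSM3 (-0.76), LSM4 (-0.68) and LSM7 (-0.60) were also called lower, while LSM2 was not called (-0.32 ± 0.20).

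XRN1, the exonuclease that degrades decapped mRNA, was the 1 higher member, at 567 and 607 units in monolayers and 1069 and 1154 in spheroids (0.89 ± 0.20, limma adjusted p = 0.00370, and 0.057 with spike-in scaling). DCP1A, which PNRC2 links to UPF1, was not called (-0.13 ± 0.17), nor were the decapping genes DCP2 (0.06 ± 0.15) and EDC4 (-0.28 ± 0.20). The remaining lower genes, named after their values were seen, were LSM14A (-0.52) and the scavenger decapping enzyme DCPS (-0.58). LSM14A lost its call without monolayer replicate 1 (-0.43) or spheroids replicate 2 (-0.48), and when its probe sets were averaged (-0.36). DCPS lost its call without monolayer replicate 2 (-0.38), spheroids replicate 1 (-0.64) or spheroids replicate 2 (-0.52).

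**Figure D4:**
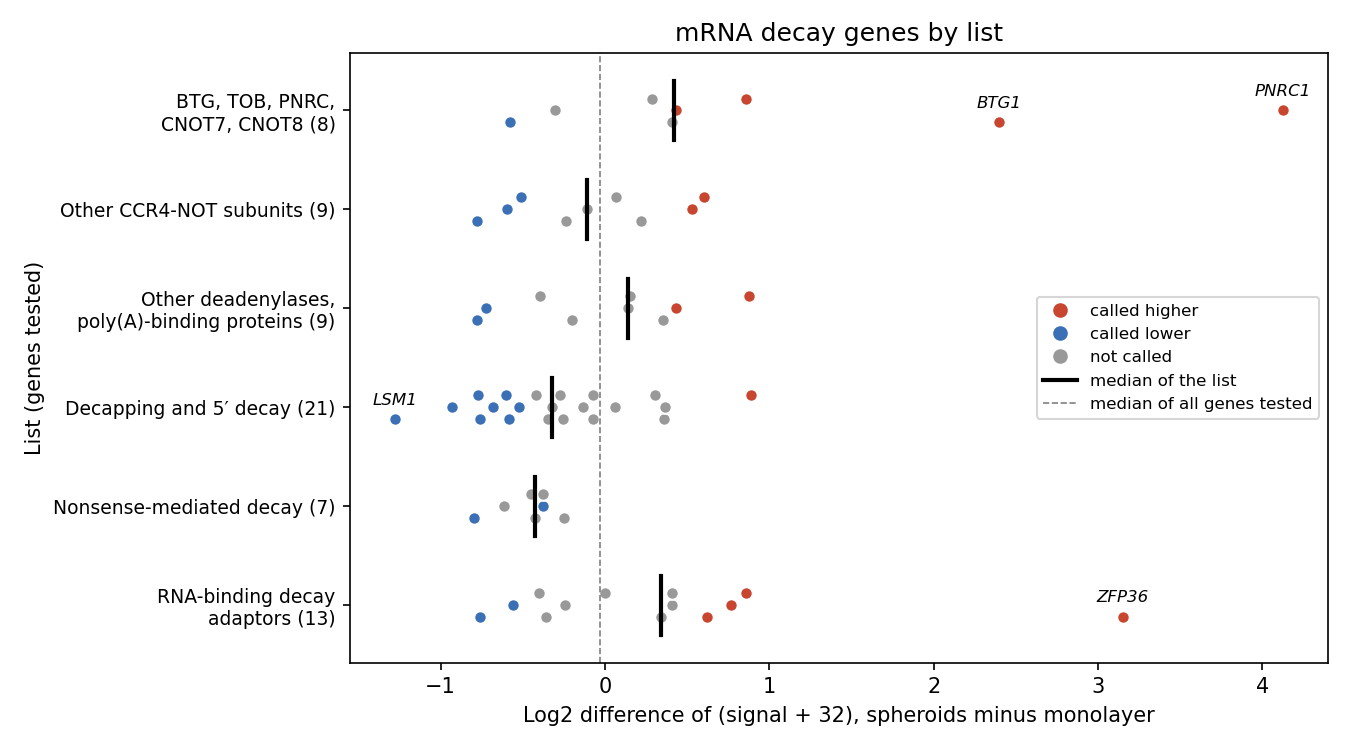
Log2 difference of signal + 32 between spheroid and monolayer arrays (x) for the 8 genes and for the tested genes of 5 mRNA decay lists (y, number tested in brackets). Red points were called higher, blue points lower, and grey points neither. Black bars are list medians, from -0.43 for nonsense-mediated decay to 0.42 for the 8 genes, and the dashed line is the median of all genes. PNRC1, ZFP36 and BTG1 lie furthest to the right.

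All 7 tested genes of nonsense-mediated decay had both spheroid arrays below both monolayer arrays, as 36.6% of all genes tested did. Of the 7, 2 were called lower, or 28.6% against 20.6% of all genes tested (median -0.43). UPF1, the helicase that PNRC2 binds, read 847 and 741 units against 561 and 649 and was not called (-0.37 ± 0.21). The exon junction factors EIF4A3 (-0.37 ± 0.12, limma adjusted p = 0.0218) and RBM8A (-0.79 ± 0.14, limma adjusted p = 9.72e-04) were lower. The EIF4A3 call was lost without monolayer replicate 2 (-0.29), spheroids replicate 1 (-0.35) or spheroids replicate 2 (-0.40), and with quantile normalization (-0.24), no filter or no intensity trend. Probe sets of RBM8A disagreed. Averaging those over the filter gave -0.23, and setting aside those with the suffix _x_at or _s_at gave 0.16, neither called.

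RNA-binding proteins that bring deadenylases to their targets comprised 4 higher and 2 lower genes among 13 tested (30.8% and 15.4%, against 19.0% and 20.6% of all genes tested). Their median of 0.34 was 0.17 without spheroids replicate 2, 0.18 without monolayer replicate 2, 0.20 with _x_at or _s_at probe sets set aside, 0.11 with probe sets averaged and -0.51 with spike-in scaling. ZFP36 (tristetraprolin), which binds AU-rich elements and recruits CCR4-NOT, had the largest difference of the 59 partners. It read 821 and 1081 units in monolayers and 12874 and 5766 in spheroids (3.15 ± 0.28, limma adjusted p = 6.79e-06). The spheroid cultures were more than 2-fold apart, and the difference was 2.57 without spheroids replicate 1 and 3.73 without spheroids replicate 2.

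Both other family members tested were higher as well. ZFP36L1 read 2423 and 3470 units against 5518 and 5075 (0.86 ± 0.17, limma adjusted p = 0.00209) and ZFP36L2 2586 and 2812 against 5236 and 4074 (0.77 ± 0.16, limma adjusted p = 0.00254). With spike-in scaling they were at 0.0046 and -0.086. The roquin gene RC3H1, named after its value was seen, was the remaining higher member (0.62 ± 0.22), not called without monolayer replicate 1 (0.41) or spheroids replicate 2 (0.39) and turned in sign by spike-in scaling (-0.22).

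The lower members were KHSRP (-0.76 ± 0.20, limma adjusted p = 0.00910), whose monolayer signals lay far apart at 5660 and 3630 units, and the microRNA effector TNRC6A (-0.56 ± 0.17), named after its value was seen. KHSRP was not called without monolayer replicate 1 (-0.44) or spheroids replicate 2 (-0.63), and TNRC6A not without monolayer replicate 2 (-0.44) or spheroids replicate 1 (-0.42).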

How the data were processed

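Total RNA from 2 independent monolayer and 2 independent spheroid cultures was labelled with biotin and hybridized to 1-colour Affymetrix arrays, 1 per culture. The authors deposited MAS5 signal intensity on a linear scale for every probe set (version not given in the sources used here). Of 54675 probe sets, 41091 had a single symbol in the platform annotation supplied, and matching gene identifiers to RefSeq (GRCh38.p14) changed 0 symbols.

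Values were transformed to log2(signal + 32), a scale on which changes of dim genes come out too small. Only probe sets averaging above 300 were kept, and each gene was represented by its brightest, giving 8721 genes. Spheroid and monolayer arrays were fitted in limma 3.58.1 under R 4.3.3 (lmFit and eBayes with an intensity trend, two-sided, Benjamini-Hochberg over all genes tested). Standard errors of single probe sets came from the same fit over 14162 probe sets. The code of the fit was checked on data simulated with independent noise from its own fitted variances, which does not test its assumptions. The number of arrays limits the precision, with a median standard error of 0.19. Arrays of a group correlated at 0.984 (monolayer) and 0.979 (spheroids) across genes.

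The members, gene lists and motifs were chosen with earlier results of these data known. Partner genes were named by rule: per list, up to 4 called genes with the largest differences (failing any call, 2 by p), and the 3 profiles nearest to BTG1 and to PNRC1. Alternatives covered the filter (none, 100), the constant (1, 64), quantile and spike-in scaling, the choice of probe set, a fit without trend, a replicate block, leaving out single arrays, and the methods' t-test, which the study applied to other measurements, not to the arrays. Called genes named outside this rule are marked as chosen after their values were seen. CNOT1, PABPC1, LSM2, DCP1A, DCP2, EDC4 and UPF1, none of them called, were also named outside the rule.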

Additional observations from a re-analysis of the deposited data

How the results depend on the processing

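With spike-in scaling, 169 of 8800 genes were higher and 4073 lower (median -0.87), 1 and 35 of the 59 decay partners (median -1.09), and 2 and 2 of the 8 members (median -0.42). Under it the signs of TOB1 (-0.00012), TOB2 (-0.42), CNOT6L (-0.25), CNOT2 (-0.33), PAN3 (-0.42), ZFP36L2 (-0.086) and RC3H1 (-0.22), and of PNRC2 (-0.57) and CNOT8 (-0.43), which were not called, turned, because the whole scale moved. Without _x_at and _s_at probe sets, 3 members kept a tested probe set, of which 2 were higher and 0 lower (median 0.86), 1118 and 1114 of 6094 genes were higher and lower, and RBM8A turned to 0.16. Members called higher were 3 with no filter, a filter of 100, a constant of 1 or no intensity trend, as TOB2 was lost, and 5 with quantile normalization. In the same order, all genes called higher were 1336 of 19775, 1903 of 11297, 1646 of 8721, 1521 of 8721 and 1503 of 8719. With no filter, when 19775 genes were tested, CNOT4, CNOT10, PAN3, EIF4A3, DCPS, RC3H1, KHSRP and TNRC6A lost their calls. Then 11 of 64 partners were lower, where 1318 of all genes were. The median of all genes was 0.043 with no filter (0.036 with a mean above 100, -0.069 with quantile normalization). The methods' t-test at its unadjusted threshold called 5 partners higher and 12 lower, 1218 genes higher and 1430 lower, and 3 members higher (BTG1, PNRC1, PNRC2) and 1 lower (BTG3), with TOB1 not called. After Benjamini-Hochberg it called 1 gene higher and 1 lower, with 0 and 0 of the partners and 0 and 0 of the members. limma called 9 and 17 partners.

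Leaving out each array in turn gave 1208 to 1502 higher and 1362 to 1484 lower genes. For partners it gave 6 to 9 higher and 12 to 13 lower (median -0.35 to -0.18), and for members 3 higher and 1 to 2 lower (median 0.31 to 0.53). The second lower member, without monolayer replicate 1, was CNOT7 (-0.46). Arrays with the same replicate number deviated together (correlation 0.32 across genes), but the labels give them no shared source. With the replicate block 6 members were higher and 2 lower, as TOB2, PNRC2, CNOT8 and CNOT7 were all called, and 10 and 21 partners and 2114 and 2301 genes. PNRC1, BTG1 and BTG3 kept direction and call under every limma alternative that gave a value (14, 13 and 13). These genes were chosen with their differences known, so the kept calls describe the processing and are no further evidence for the differences. The causes were not tested.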
